A study of Sus scrofa with 16 samples.

Results

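Microglia are the resident macrophages of the brain. They enter it early in development, renew themselves there, and survey the tissue with fine processes that they draw in when they take on an amoeboid, phagocytic shape. In the resting state they carry a set of receptors that few other brain cells carry, among them the fractalkine receptor, the ADP receptor P2RY12 and the receptor for colony-stimulating factor 1, and the level of P2RY12 in particular is known to drop when microglia are activated.

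Transcripts of 9 such identity genes were looked up in the hippocampus of preterm pigs with and without necrotizing enterocolitis (NEC), an inflammatory disease of the immature gut. The genes, chosen by name, were CX3CR1, P2RY12, TMEM119, CSF1R, AIF1, TREM2, TYROBP, CD68 and ITGAM. Of these 9, 5 were matched to the table of expression values through their pig Ensembl gene ID, with 1 entry each among 22815 entries. They were CX3CR1 (ENSSSCG00000024024), P2RY12 (ENSSSCG00000011713), CSF1R (ENSSSCG00000014441), TYROBP (ENSSSCG00000002919) and ITGAM (ENSSSCG00000007754). All 5 passed the filter on low values and were among the 13590 entries tested. No pig ID was paired with TMEM119 in the name table used, and the IDs of AIF1, TREM2 and CD68 matched no entry, so these 4 genes are not analysed here. AIF1 encodes Iba1, the protein that was stained in the same study to count microglia and to score their shape in sections of the right hippocampus. A direct comparison of that stain with its own transcript was therefore not made.

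All 16 pigs were crossbred, delivered preterm by cesarean section, fed human donor milk and parenteral nutrition, and reared for 8 days, and NEC arose without a further agent. The 5 No NEC pigs (2 female, 3 male) had no gut lesion, the 5 Co-NEC pigs (2 female, 3 male) had severe lesions in the colon only, and the 6 Si-NEC pigs (3 female, 3 male) had severe lesions in the small intestine, with or without the colon. NEC was not assigned to the pigs, since they were grouped by the lesions they developed, and milk type and litter are not given in the labels. Each library came from the RNA of 1 whole left hippocampus, and levels are in FPKM, fragments scaled to transcript length and to the reads of the library, so that genes can be compared per length.

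Depth per pig was unknown, because the table holds no counts. The sum of all FPKM values was 544629 to 645197 in 14 pigs, but 823320 in Si-NEC pig 223-15 and 864931 in No NEC pig 230-15. These 2 pigs stood apart from the others over all genes, and the comparisons were also made without them. Transcripts of microglia were present in every pig, with summed FPKM of the 5 genes of 46.1 to 107 in No NEC, 46.9 to 74.1 in Co-NEC and 41.0 to 123 in Si-NEC pigs. From these bulk values alone, fewer microglia and less RNA per cell cannot be told apart. In its stained sections, the paper found that the total number of microglia did not differ statistically between groups. The share of amoeboid microglia was higher in both NEC groups than in No NEC pigs.

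TYROBP, the adaptor that passes on signals from TREM2 and other activating receptors, was the most abundant of the 5, with a mean of 29.1 FPKM over the 16 pigs. It was above each of the other 4 genes in all 16 pigs. P2RY12, CX3CR1 and CSF1R followed at 12.1, 11.4 and 10.4 FPKM, and they did not differ beyond their spread, since P2RY12 was above CX3CR1 in 10 of 16 pigs and above CSF1R in 9 of 16. ITGAM, the alpha chain of complement receptor 3, was lowest at 4.03 FPKM, and CX3CR1 was below it in 1 pig.

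CX3CR1, the receptor through which microglia sense neuronal fractalkine, was measured in the No NEC pigs at 13.3, 14.9, 13.5, 5.39 and 6.04 FPKM (pigs 540-14, 228-15, 230-15, 253-15 and 550-14, the order used for this group throughout). The Co-NEC pigs had 12.2, 8.73, 16.4, 12.9 and 14.3 FPKM (225-15, 545-14, 552-14, 255-15 and 231-15, likewise). The Si-NEC pigs ranged from 4.25 to 21.3 FPKM with a median of 8.70. The values fell into a low set of 5 pigs at 4.25 to 6.04 FPKM, which held 2 No NEC and 3 Si-NEC pigs and no Co-NEC pig, and the other 11 pigs at 8.73 FPKM and above. All 3 groups overlapped.

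P2RY12, the purinergic receptor that steers the processes of microglia toward ADP, was at 11.5, 11.7, 16.8, 9.57 and 9.99 FPKM in the No NEC pigs and at 13.4, 10.6, 13.4, 16.8 and 15.6 FPKM in the Co-NEC pigs. The Si-NEC pigs ranged from 5.02 to 22.9 FPKM with a median of 8.77. The highest of all pigs was Si-NEC pig 223-15, which stands apart over all genes, and without it the Si-NEC pigs reached 12.1 FPKM. Of the 6 Si-NEC pigs, 4 were below every Co-NEC pig and 3 below every No NEC pig.

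CSF1R, the receptor on which microglia depend for survival, had a coefficient of variation of 22.2% over all pigs, beside 26.005% for ITGAM, 36.9% for P2RY12, 43.5% for CX3CR1 and 47.6% for TYROBP. Without 223-15 and 230-15 the values were 23.9% for CSF1R, 22.6% for ITGAM, 30.05% for P2RY12, 42.2% for CX3CR1 and 23.9% for TYROBP. CSF1R was at 15.6, 10.6, 10.4, 10.002 and 10.8 FPKM in the No NEC pigs and at 9.12, 8.15, 9.37, 14.7 and 11.2 FPKM in the Co-NEC pigs. The Si-NEC pigs ranged from 6.85 to 12.4 FPKM with a median of 9.20. Of the 6 Si-NEC pigs, 4 lay below every No NEC pig, but no pair of groups was free of overlap.

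TYROBP was at 25.3, 28.5, 61.1, 18.2 and 23.6 FPKM in the No NEC pigs and at 23.9, 16.1, 19.8, 24.3 and 21.1 FPKM in the Co-NEC pigs. The Si-NEC pigs ranged from 19.1 to 62.1 FPKM with a median of 29.8. The 2 highest values belonged to the 2 pigs that stand apart, 62.1 FPKM in 223-15 and 61.1 in 230-15, against 16.1 to 38.4 FPKM in the other 14 pigs. No Co-NEC pig reached the 4 highest Si-NEC pigs.

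ITGAM was at 5.43, 3.71, 5.36, 2.89 and 3.29 FPKM in the No NEC pigs and at 3.38, 3.33, 3.27, 5.29 and 3.79 FPKM in the Co-NEC pigs. The Si-NEC pigs ranged from 2.89 to 6.11 FPKM with a median of 4.03. The groups shared most of their range.

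**Figure D1:**
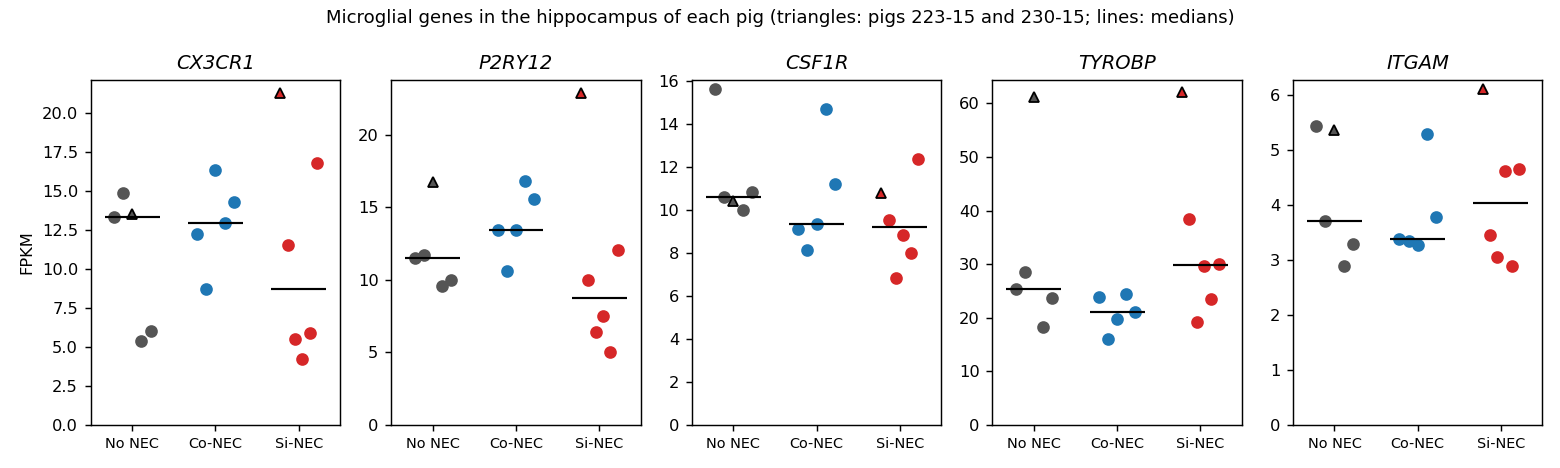
FPKM of CX3CR1, P2RY12, CSF1R, TYROBP and ITGAM (vertical axes, from 0) in each pig of the No NEC, Co-NEC and Si-NEC groups (horizontal axis). Each point is 1 pig, triangles are pigs 223-15 and 230-15, and lines are group medians. The groups overlap for every gene, and the triangles hold the 2 highest TYROBP values, 62.1 and 61.1 FPKM.

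To ask whether NEC lesions went with another level of these genes, log2(FPKM + 0.5) was compared between each pair of groups with limma, adjusted by the Benjamini-Hochberg method over all 13590 entries, at the study's threshold of 0.2. The added 0.5 somewhat shrinks the log2 difference between pigs. A difference of mean logs can also depart from the log2 ratio of mean FPKM values in either direction. These were -0.53 and -0.39 for P2RY12 between Si-NEC and Co-NEC, and -0.09 and 0.03 for CX3CR1 between Si-NEC and No NEC.

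Between Si-NEC and No NEC, 0 of the 5 genes passed the threshold in limma, where 0.00736% of all entries (1 of 13590) did, and the adjusted p was 1 for each. None had an unadjusted p under 0.05, against 2.61% of all entries, and none was free of overlap, against 0.155%. The log2 fold changes were -0.30 for P2RY12 (SE 0.32), -0.28 for CSF1R (SE 0.16), -0.09 for CX3CR1 (SE 0.43), -0.01 for ITGAM (SE 0.21) and 0.13 for TYROBP (SE 0.33). The difference of CSF1R was the largest relative to its error, with a 95% interval of -0.64 to 0.08. It was -0.17 without No NEC pig 540-14, whose CSF1R was the highest of all, and -0.36 to -0.17 over all fits that left out 1 pig. The interval of CX3CR1 was the widest, from -1.03 to 0.86, and differences of any size within it remain possible. Without pigs 223-15 and 230-15 the log2 fold changes were -0.42 for P2RY12, -0.35 for CSF1R, -0.21 for CX3CR1 and 0.21 for TYROBP. The median of the 5 genes was -0.09, beside 0.02 over all entries tested, and its sign turned when single pigs were left out (-0.32 to 0.0507).

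Between Co-NEC and No NEC, 0 of the 5 genes passed, where 0.00736% of all entries did, with adjusted p-values of 0.812 to 0.913. None had an unadjusted p under 0.05, against 3.44% of all entries, and none was free of overlap, against 0.464%. CX3CR1 and P2RY12 had log2 fold changes of 0.35 (SE 0.30) and 0.23 (SE 0.17). CSF1R, ITGAM and TYROBP had -0.13 (SE 0.17), -0.09 (SE 0.19) and -0.45 (SE 0.27). The value of TYROBP was -0.18 without No NEC pig 230-15, and that of P2RY12 was then 0.36, with a 95% interval of 0.06 to 0.65 and limma p-values of 0.0230 unadjusted and 0.806 adjusted.

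Between Si-NEC and Co-NEC, 0 of the 5 genes passed, where 0.0147% of all entries did, with adjusted limma p-values of 0.867 to 0.957. Of all entries, 5.64% had an unadjusted p under 0.05, and of the 5 genes TYROBP had one, with a log2 fold change of 0.58 (SE 0.25), an unadjusted limma p of 0.0386 and an exact two-sided permutation p of 0.0606. The smallest exact p that 6 against 5 pigs allow is 0.00433. P2RY12 and CX3CR1 had log2 fold changes of the opposite sign, -0.53 (SE 0.31) and -0.44 (SE 0.38), and CSF1R and ITGAM had -0.15 (SE 0.17) and 0.08 (SE 0.19). None of the 5 was free of overlap, against 0.545% of all entries. This comparison leaned on Si-NEC pig 223-15. Without it TYROBP had 0.38 (limma unadjusted p = 0.0540), P2RY12 had -0.78 (limma unadjusted p = 0.00401) and CX3CR1 had -0.67, with adjusted p-values of 0.521 to 0.569 for the 3 genes.

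**Figure D2:**
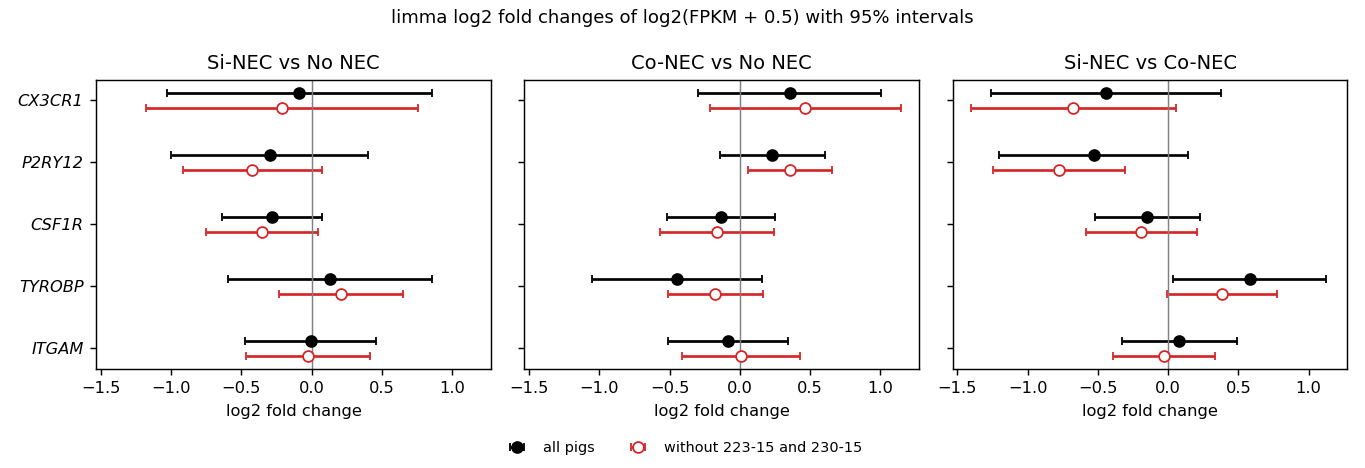
Log2 fold changes (horizontal axis) of the 5 microglial genes in the 3 comparisons, from limma, with 95% intervals as bars. Filled points are all pigs and open points leave out 223-15 and 230-15. All intervals over all pigs include 0 except that of TYROBP between Si-NEC and Co-NEC, which runs from 0.04 to 1.12.

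The labels give each pig a number ending in 14 or 15, with no word on what the ending stands for. Within the pigs ending in 14 (2 against 2) the Si-NEC minus Co-NEC difference of mean log2(FPKM + 0.5) was -1.01 for P2RY12 and 0.24 for TYROBP, and within those ending in 15 (4 against 3) it was -0.32 and 0.71. Within females (3 against 2) the differences were -0.41 for P2RY12 and 0.85 for TYROBP, and within males (3 against 3) they were -0.72 and 0.27. All pigs ending in 14 were male and all females ended in 15, so these subsets overlap and are not separate checks. The signs of these 2 genes held in every subset. For Si-NEC against No NEC they did not, since TYROBP was at -0.20 within the pigs ending in 14 and 0.26 within those ending in 15, and at 0.84 within females and -0.47 within males. The interaction of group and sex was fitted with limma for the 5 genes in the 3 comparisons, and none of the 15 passed the threshold of 0.2, the lowest adjusted p being 0.439.

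TYROBP and P2RY12 were then set against each other within each pig, because a ratio of 2 genes from 1 library does not depend on the scale of that library. This step was added after the values had been seen, and it is given as a description with no test. The ratio of P2RY12 to TYROBP was 0.561, 0.658, 0.677, 0.691 and 0.736 in the Co-NEC pigs. It was 0.457, 0.411, 0.274, 0.525 and 0.423 in the No NEC pigs, and it ranged from 0.214 to 0.401 with a median of 0.298 in the Si-NEC pigs. Every Co-NEC pig thus lay above every pig of both other groups. The Si-NEC and No NEC pigs overlapped, and 3 of 6 Si-NEC pigs were below all No NEC pigs, of which 230-15 was the lowest.

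All 10 ratios between the 5 genes were formed, and that of P2RY12 to TYROBP was the one free of overlap between Co-NEC and No NEC and between Si-NEC and Co-NEC. No ratio was free of overlap between Si-NEC and No NEC. As a background, P2RY12 was set in the same way against each of 13207 entries measured above 0 in every pig. The groups did not overlap for 2.01% of them between Co-NEC and No NEC and for 1.35% between Si-NEC and Co-NEC. With TYROBP these shares were 1.14% and 1.33%. The mean log2 ratio of P2RY12 to TYROBP was -0.59 ± 0.15 in Co-NEC (SD, n = 5), -1.29 ± 0.35 in No NEC (SD, n = 5) and -1.75 ± 0.35 in Si-NEC pigs (SD, n = 6). The difference of Si-NEC from Co-NEC was -1.15 with all pigs and -1.21 without 223-15, and that of Co-NEC from No NEC was 0.70 with all pigs and 0.55 without 230-15. Within the pigs ending in 14 and in 15 the Si-NEC minus Co-NEC difference was -1.32 and -1.06, and within females and males it was -1.30 and -1.04. These subsets overlap, since all pigs ending in 14 were male.

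**Figure D3:**
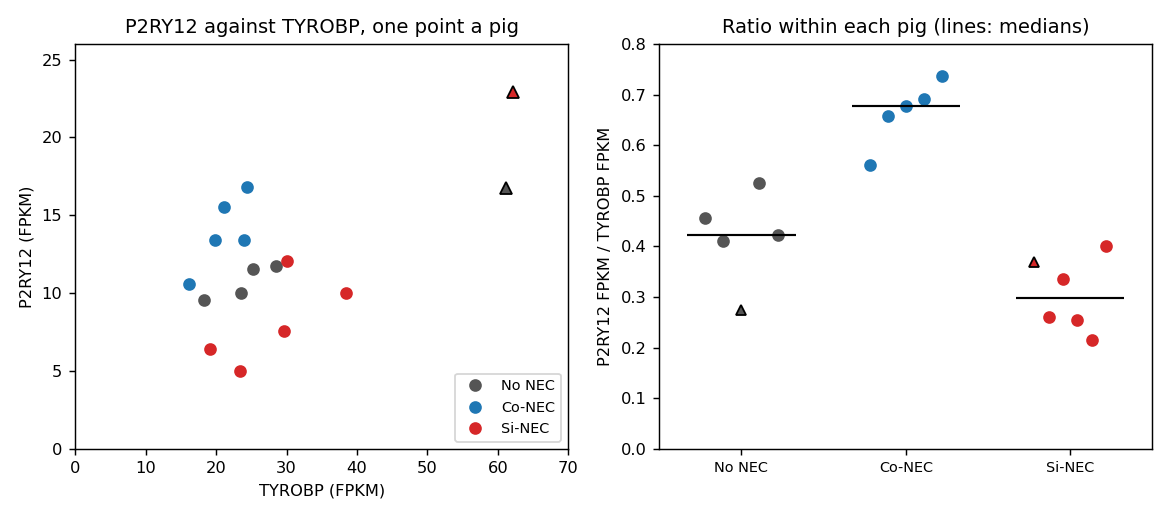
Left, P2RY12 (vertical axis) against TYROBP (horizontal axis) in FPKM, 1 point a pig. Right, the ratio of P2RY12 to TYROBP within each pig, with lines at group medians and triangles for pigs 223-15 and 230-15. The 5 Co-NEC pigs sit at 0.561 to 0.736, above the No NEC pigs, which reach 0.525, and the Si-NEC pigs, which reach 0.401.

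Some other microglial genes shared this order. Among 13 tested genes of a wider microglial list, the ratio of P2RY12 to the gene was free of overlap for 2, C1QA and FCER1G, in both of these comparisons. Over all 13207 entries it was for 265 between Co-NEC and No NEC (2.01%) and 178 between Si-NEC and Co-NEC (1.35%). In all of them the ratio was higher in Co-NEC pigs, so this order is not particular to microglial genes. These ratios reuse P2RY12 and TYROBP, which were paired after their values had been seen. C1QA encodes a chain of the complement protein C1q and FCER1G an Fc receptor chain that, like TYROBP, signals through an ITAM motif. P2RY12 over C1QA was 0.548 to 0.629 in Co-NEC, 0.284 to 0.504 in No NEC and 0.241 to 0.422 in Si-NEC pigs. P2RY12 over FCER1G was 0.605 to 0.841, 0.344 to 0.565 and 0.206 to 0.563 in the same order. Seen from TYROBP, the ratios of GPR34, MERTK, LAPTM5 and BIN2 to it were free of overlap between Si-NEC and Co-NEC, and that of CD53 between Co-NEC and No NEC. Over all entries the shares in these comparisons were 1.33% and 1.14%. GPR34, a microglial receptor of the same family as P2RY12, was at 0.159 to 0.255 of TYROBP in Si-NEC and 0.283 to 0.505 in Co-NEC pigs, and MERTK, a receptor for the uptake of dying cells, at 0.0585 to 0.208 and 0.218 to 0.378.

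The 5 genes did not vary as 1 unit over the pigs. Pearson's r of log2(FPKM + 0.5) over the 16 pigs was 0.82 between CX3CR1 and P2RY12 and 0.78 without the 2 pigs that stand apart, the closest pair of the 10 over all pigs. Among 13589 other entries, P2RY12 ranked 15 by likeness to CX3CR1. CSF1R was closest to ITGAM, with r of 0.67 over all pigs and 0.78 without the 2 pigs. Over all pigs, TYROBP was the member least like the receptors, with r of 0.23 to CSF1R, 0.45 to CX3CR1 and 0.49 to P2RY12. Centred on group means, its r was 0.35 to CSF1R and 0.68 to CX3CR1. The r of P2RY12 and TYROBP was 0.02 without the 2 pigs, but once each gene was centred on its group mean it was 0.84 over all 16 pigs and 0.73 without the 2. Within groups, pigs with more P2RY12 thus had more TYROBP, while the groups sat at different levels of one against the other. The pigs share libraries of unknown depth, and these r values are descriptions.

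**Figure D4:**
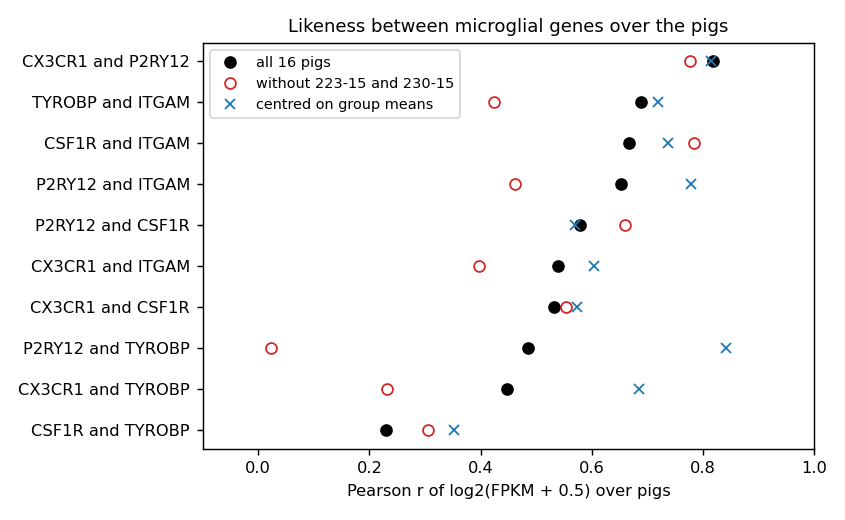
Pearson r of log2(FPKM + 0.5) over pigs (horizontal axis) for the 10 pairs of microglial genes, for all 16 pigs, without pigs 223-15 and 230-15, and after centring on group means. CX3CR1 and P2RY12 stay at 0.78 to 0.82, while P2RY12 and TYROBP move from 0.02 to 0.84.

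The entries most like each gene, among those with a symbol, differed between the members. For CX3CR1 they were NRK (r = 0.88), FPGT (0.85) and BHLHE41 (0.85), and for P2RY12 they were RNF128 (0.90), NRK (0.88) and GIMAP4 (0.85). For CSF1R they were TAGAP (0.84), DOCK8 (0.77) and DKK1 (0.73). ITGAM was most like DOK2 (0.90), C1QA (0.88) and VAV1 (0.86), signalling and complement genes of myeloid cells. TYROBP instead was most like CCT3 (0.95), KARS1 (0.94) and NFYC (0.94), which encode a chaperonin subunit, a lysyl-tRNA synthetase and a transcription factor subunit found in all cells. Without the 2 pigs these 3 values were 0.86, 0.81 and 0.83.

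Of 5 gene pairs listed as protein partners or as genes of 1 cell state, 2 had both genes in the table. ITGAM and ITGB2, the chains of complement receptor 3, varied together over the 16 pigs (Pearson r = 0.71, permutation p = 0.002, adjusted over the 2 pairs 0.004; Spearman rho = 0.76, permutation p = 0.001, adjusted 0.002). With the 2 pigs most distant from the ITGAM median left out, r was 0.73 (permutation p = 0.004, adjusted 0.008), centred on group means it was 0.72, and without 223-15 and 230-15 it was 0.58. CSF1R and CX3CR1 gave r = 0.53 (permutation p = 0.03, adjusted 0.03) and rho = 0.56 (permutation p = 0.02, adjusted 0.02). With the 2 pigs most distant from the CSF1R median left out, r was 0.46 (permutation p = 0.09, adjusted 0.09), so the p was no longer under 0.05 while r moved little. It was 0.57 centred on group means and 0.55 without 223-15 and 230-15.

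Of 18 partners and regulators of these genes, 10 were found and 9 tested, and 0 passed the threshold in any comparison in limma. The ligands CX3CL1, CSF1 and IL34 and the regulator IRF8 were not matched. ITGB2 had log2 fold changes of 0.11 (SE 0.23) between Si-NEC and No NEC, 0.08 (SE 0.17) between Co-NEC and No NEC and 0.03 (SE 0.20) between Si-NEC and Co-NEC, the last -0.08 without 223-15. SPI1, which encodes PU.1, the factor that sets the myeloid program, was at 12.7 to 19.4 FPKM in Co-NEC and 16.98 to 33.8 FPKM in No NEC pigs. Its log2 fold change of -0.43 (SE 0.19) had an unadjusted limma p of 0.0477 and an adjusted p of 0.812, and it was the 1 gene of the 9 with an unadjusted p under 0.05 in any comparison of all pigs. The 33.8 FPKM belonged to No NEC pig 230-15, and without it the log2 fold change was -0.26 (SE 0.12), with limma p-values of 0.0669 unadjusted and 0.806 adjusted. The other genes at the ends of the list between Si-NEC and No NEC were SYK (-0.30, SE 0.32) and APOE (-0.15, SE 0.26) at the low end and TGFB1 (0.17, SE 0.17) and INPP5D (0.19, SE 0.16) at the high end. Without 223-15 and 230-15 these were -0.68 (SE 0.24) for SYK, -0.06 for APOE, 0.19 for TGFB1 and 0.13 for INPP5D, and the unadjusted limma p of SYK was 0.0179 (adjusted p 1). SYK and INPP5D encode a kinase and a phosphatase downstream of ITAM adaptors.

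Of 24 other microglia genes, 14 were found and 13 tested, and again 0 passed in limma. Between Si-NEC and No NEC, 6 were higher and 7 were lower in Si-NEC, and their median log2 fold change was -0.02. The lowest were SLCO2B1 (-0.31, SE 0.18) and LAPTM5 (-0.28, SE 0.24), a transporter and a lysosomal membrane protein, and the highest were MERTK (0.21, SE 0.27) and GPR84 (0.31, SE 0.33). Without 223-15 and 230-15 these were -0.42, -0.38, 0.06 and 0.60 in the same order, and SLCO2B1 had limma p-values of 0.0259 unadjusted and 1 adjusted. The ends of the list thus moved with these 2 pigs. Between Si-NEC and Co-NEC, SLCO2B1 had -0.44 (SE 0.19), with limma p of 0.0360 unadjusted and 0.867 adjusted, and without 223-15 it had -0.42 (SE 0.20), with limma p of 0.0598 unadjusted and 0.566 adjusted.

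Of 24 genes of activated or phagocytic microglia, 13 were found and 11 tested, with 0 past the threshold in limma. Between Si-NEC and Co-NEC, 10 of the 11 were higher and CD86 was lower, and their median log2 fold change was 0.21 beside 4.82e-05 over all entries, and none had an unadjusted p under 0.05. Without 223-15, 7 were higher and 4 lower, the median was 0.09 beside -0.01 over all entries, and CD86 had an unadjusted limma p of 0.0494 (adjusted p 0.560). Between Si-NEC and No NEC, 7 were higher and 4 lower (median 0.08), and between Co-NEC and No NEC, 5 were higher and 6 lower (median -0.02). Without 223-15 and 230-15 the first of these counts was again 7 and 4 (median 0.11), while the second became 8 and 3 (median 0.05). Named by their place at the ends of the list between Si-NEC and No NEC, LYZ, encoding lysozyme, had 0.65 (SE 0.46) and LGALS3, encoding galectin-3, had 0.47 (SE 0.28), while CTSL and CD86 had -0.21 (SE 0.21) and -0.25 (SE 0.25). CD14, the co-receptor for bacterial lipopolysaccharide, was the 1 gene of the list with an unadjusted limma p under 0.05, between Co-NEC and No NEC (log2 fold change -0.43, SE 0.14, unadjusted p = 0.0110, adjusted p = 0.812, exact permutation p = 0.0159), and it had -0.37 without 230-15. CD14 was named after its values were seen. It had 0.08 (SE 0.33) between Si-NEC and No NEC, with Si-NEC pigs at 4.64 to 25.4 FPKM, and 0.51 (SE 0.32) between Si-NEC and Co-NEC. By qPCR in more pigs, the paper reported CD14 as upregulated in the Si-NEC group.

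**Figure D5:**
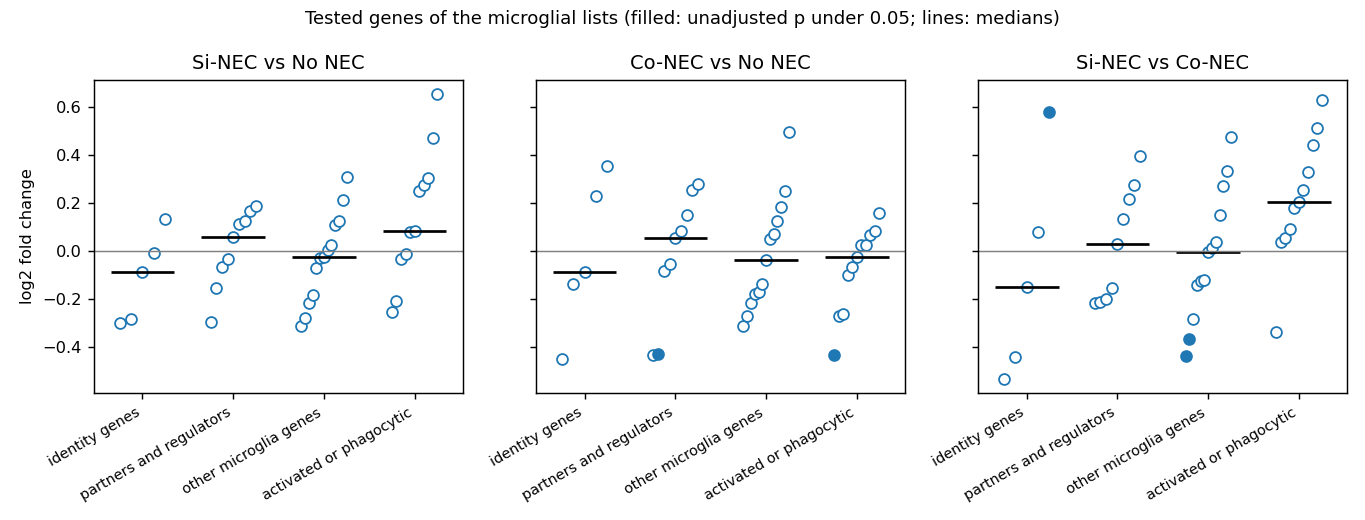
Log2 fold changes (vertical axis) of the tested genes of 4 microglial lists in the 3 comparisons, 1 point a gene, with lines at the list medians. Filled points have an unadjusted limma p under 0.05, and none passed the adjusted threshold of 0.2. In Si-NEC against Co-NEC the identity genes have a median of -0.15 and the activated or phagocytic genes one of 0.21, which is 0.09 without pig 223-15.

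TYROBP and ITGAM are also carried by neutrophils and blood monocytes. Of 16 markers of those cells, 9 were found and 3 passed the filter on low values, and CSF3R, the receptor of the neutrophil growth factor, was listed at 0 in every pig. The astrocyte gene ALDH1L1 was also listed at 0 in every pig, so such an entry says nothing of the level of a gene. The summed level of the 9 neutrophil and monocyte markers found was 8.98 to 14.8 FPKM in No NEC, 10.1 to 13.001 in Co-NEC and 12.4 to 35.6 in Si-NEC pigs. S100A8 made up most of that difference, at 12.5 ± 9.26 FPKM in Si-NEC (SD, n = 6) and 1.37 ± 0.64 in Co-NEC pigs (SD, n = 5), with a log2 fold change of 2.47 (SE 0.53) and an adjusted limma p of 0.634, and it had 2.35 without 223-15. Between Si-NEC and No NEC S100A8 had 2.24 (SE 0.55) and did not pass the threshold in limma. The paper reported S100A8 as upregulated in Si-NEC pigs by its own RNA-seq test and by qPCR in more pigs. VCAN made up most of the sum in No NEC and Co-NEC pigs, with means of 7.96 and 8.60 FPKM, so the sum there rests largely on 1 gene. VCAN had a log2 fold change of -0.06 (SE 0.10) between Si-NEC and Co-NEC. Of 9 markers of macrophages at the borders of the brain, 7 were found and 3 tested, and their sum was 5.41 to 10.1 FPKM in No NEC, 5.72 to 8.23 in Co-NEC and 4.46 to 11.98 in Si-NEC pigs. The part of these cells in the values of TYROBP, ITGAM and the other member genes was not tested.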

How the data were processed

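RNA from the left hippocampus of 16 pigs was sequenced, and the deposited table holds FPKM values per gene and pig. The authors trimmed the reads, aligned them to Sscrofa 10.2 with Tophat 2.1.1 and estimated FPKM with Cufflinks 2.2.1. Any scaling between pigs is not given in the sources used here. Low values shared no common step, so no read counts could be recovered, and depth and counting error are unknown.

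Of 24594 entries, 1779 repeated another entry in every value and were left out. Those averaging 0.5 FPKM or more entered the fits, as log2(FPKM + 0.5), in limma 3.58.1 in R 4.3.3 (pairwise fits, eBayes with trend), adjusted over all entries. The fits were tested on simulated data. Single genes were also compared by exact two-sided permutation tests, and correlations by 100000 permutations.

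Genes were joined to IDs by symbol in a reference name table. The text names the members, their listed direct partners, the 2 lowest and 2 highest genes of each microglial list between Si-NEC and No NEC, genes with an unadjusted p under 0.05 in those lists, and the 3 entries most like each member. The members and lists were chosen with earlier results of these data known. Marker lists of other brain cells, lymphocytes and erythroid cells were run beside these, and 0 of their genes passed the threshold in limma. Alternatives changed the pseudocount, the filter, the scaling, the covariates, the variance model and the pigs included. No protein, promoter or transcript sequences were used here. The lists and coefficients of variation without pigs 223-15 and 230-15, and the ratios between genes, were added after seeing the data. Results of 2 listed genes are not reported here.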

Additional observations from a re-analysis of the deposited data

Results flagged for a closer look

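In 3 of the 15 sets of values (5 genes in 3 groups), 1 pig lay far from the rest of its group by Dixon's criterion, which chance meets in about 1 of 20 sets. TYROBP was at 61.1 FPKM in No NEC pig 230-15, where the next pig of the group had 28.5 FPKM. That pig stands apart over all genes, and the part of this in its TYROBP value was not tested. CSF1R was at 15.6 FPKM in No NEC pig 540-14, where the next had 10.8 FPKM. ITGAM was at 5.29 FPKM in Co-NEC pig 255-15, where the next had 3.79 FPKM.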

How the results depend on the processing

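No member passed the threshold of 0.2 in the limma fits under any of the 24, 23 and 24 alternatives run for Si-NEC against No NEC, Co-NEC against No NEC and Si-NEC against Co-NEC, nor at 0.05, and leaving out 1 pig at a time gave 0 calls throughout. The lowest adjusted p of a member over them was 0.914, 0.502 and 0.247, the last with array weights, under which 201 entries passed between Si-NEC and Co-NEC where 2 did in the reported fit. Over all entries, 4 passed where 1 did with array weights (Si-NEC against No NEC) and with no filter (Co-NEC against No NEC), and leaving out 1 pig gave 1 to 3, 1 to 2 and 1 to 12 in the 3 comparisons, with 12 without Si-NEC replicate 3 (pig 547-14) and 5 without Co-NEC replicate 4 (pig 255-15) where 2 passed. The cause was not tested. The median log2 fold change of the 5 genes moved by less than 1 SD of the pigs' mean level, but its sign turned under 5 of 23 alternatives for Si-NEC against No NEC (-0.32 to 0.0563) and 3 of 22 for Co-NEC against No NEC (-0.20 to 0.0113). It turned under 0 of 23 for Si-NEC against Co-NEC (-0.23 to -0.0135).

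Of 340 log2 fold changes of single members under alternatives, 20 had the opposite sign, all of CX3CR1, TYROBP or ITGAM. For Si-NEC against No NEC, array weights gave 0.126 for CX3CR1 and 0.0563 for ITGAM, and leaving out 1 pig gave -0.32 to 0.12 for CX3CR1, -0.0618 to 0.40 for TYROBP and -0.12 to 0.0909 for ITGAM. For ITGAM between Co-NEC and No NEC, leaving out both 223-15 and 230-15 gave 0.00707 and leaving out 1 pig gave -0.20 to 0.0113. Between Si-NEC and Co-NEC these were -0.0317 and -0.0317 to 0.19. The median r between members was 0.56, and it was 0.70 for values centred on group means and 0.44 without 223-15 and 230-15. No paired analysis was possible because the replicate numbers were given in accession order to different pigs and pair none of them.

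With 5 or 6 pigs a group and no counts, the intervals are wide, and differences of any size within them remain possible.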

Other observations

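Si-NEC pig 246-15 had the lowest CX3CR1 of all 16 pigs, 4.25 FPKM, while its TYROBP, 29.6 FPKM, was above the median of all pigs. Its CD14, 25.4 FPKM, and TLR2, 2.38 FPKM, were the highest of the 16, and its FCER1G, 36.6 FPKM, was below those of pigs 223-15 and 230-15 only. These values were picked after they were seen.

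In Co-NEC pigs P2RY12 and TYROBP had coefficients of variation of 17.01% and 15.9%, against 24.1% and 54.4% in No NEC and 61.1% and 45.4% in Si-NEC pigs. Without 223-15 and 230-15 the values were 10.21% and 18.01% in No NEC and 34.4% and 26.01% in Si-NEC pigs. P2RY12 then varied less in No NEC than in Co-NEC pigs, and the other contrasts were smaller. The difference in spread was not tested.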
